A study of Mus musculus with 6 samples.

Results

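Keratin genes outside the basal and stress-induced sets were examined in chromatin accessibility profiles of horizontal basal cells (HBCs), the normally quiescent stem cells that lie on the basal lamina of the olfactory epithelium. The set comprised every protein-coding gene of the GENCODE annotation on GRCm38 named Krt plus a digit or Krtap, leaving out the basal keratins Krt5, Krt14 and Krt15 and the stress keratins Krt6a, Krt6b, Krt16 and Krt17. This gave 103 genes of 21911 protein-coding genes. They were grouped as 6 simple epithelial keratins, 13 suprabasal or specialised keratins, 8 keratins of the inner root sheath and companion layer of hair, 15 keratins of the hair cortex and cuticle, 4 other keratins and 57 keratin-associated protein genes.

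Keratins are the intermediate filament proteins of epithelial cells, and a type I (acidic) keratin always pairs with a type II (neutral to basic) partner. In the mouse the type I genes and part of the keratin-associated genes share a cluster on chromosome 11, while the type II genes and the type I gene Krt18 lie on chromosome 15. Keratin-associated proteins form the matrix in which hair keratin filaments are embedded, and their genes are best known from the differentiating hair shaft rather than from a mucosa. HBCs are defined by Krt5 and Krt14, and Krt8 and Krt18 mark the sustentacular cells that lie above them.

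Accessibility was measured by single-cell ATAC-seq, in which Tn5 transposase cuts open DNA and each cut is sequenced. Both groups were mice of the genotype Krt5CreER; Rosa26 LSL-YFP/LSL-YFP, in which a tamoxifen-inducible Cre under Krt5 control switches on YFP, so that cells with a history of Krt5 expression and their descendants are labelled. Live YFP+ cells (negative for propidium iodide) were sorted from dorsal olfactory epithelium. The 3 uninjured libraries were compared with 3 libraries collected 24 h after methimazole, a drug that destroys most of the epithelium above the HBCs. In both groups the animals of replicate 1 were 8 weeks old, those of replicate 2 were 6 weeks old and those of replicate 3 were 6 to 7 weeks old. The epithelium of each animal was handled separately, but how many animals stand behind a library is not given in the labels. The p-values therefore measure the spread between libraries, which may be partly technical.

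Barcodes with at least 2000 fragments numbered 454, 889 and 629 in the uninjured libraries and 1338, 420 and 746 after injury, in the order of replicates 1 to 3, which is kept throughout. They held 14825320 to 44875242 cut sites per library. Uninjured replicate 3 and injured replicate 3 shared 34 barcodes that carried copied fragments, against 0 to 4 for any other pair of libraries, and leaving copied barcodes out, a choice made after seeing the data, kept all 5 promoter calls and both gene body calls given here. Levels are CPM, cut sites per 1000000 cut sites of the library, on library sizes scaled by TMM, a factor that centres the bulk of genes. The factors were computed separately for promoters, gene bodies and open regions, so every change is relative to the bulk of its own kind, whose median log2 change was 0.003, 0.02 and 0.01. With factors from 10 kb genomic bins the median promoter moved to -0.528, and with total cut sites to -0.279.

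The defining markers of HBCs were open: the promoters of Krt5, Krt14, Krt15, Trp63, Icam1, Itgb4, Itga6 and Col17a1 summed to 101 to 168 CPM in the 6 libraries. Other cells were present too. The summed promoters of 6 sustentacular cell markers stood at 17.7, 31.3 and 22.8 before and at 13.2, 12.3 and 12.1 after injury. Those of 6 olfactory sensory neuron markers were highest in injured replicate 3 at 56.0, against 27.4 to 36.8 in the other libraries. Injured replicate 3 also had the highest sum of 6 neuronal precursor markers, 33.3 against 21.2 to 26.4. It held 93 of the 177 barcodes of the sensory neuron-like cell cluster described below. The 6 immune markers summed to 1.80, 2.07 and 2.05 CPM before and 6.05, 6.33 and 3.88 CPM after injury, with 1 promoter called higher, and 1 of the 8 HBC promoters was called lower. The promoter sums of endothelial markers (4.69 to 6.55 before and 8.20 to 11.1 after injury) and of ensheathing and Schwann cell markers (5.73 to 6.88 and 8.81 to 11.3) were also higher in every injured library, with no promoter called. Over gene bodies the endothelial sums overlapped (91.2 to 105 before and 98.3 to 104 after injury), as did the immune sums (33.4 to 43.6 and 37.4 to 49.5). The ensheathing and Schwann sums did not (14.8 to 17.6 and 18.4 to 24.8). The part of these cells in the changes of the members was not tested. In this bulk sum, fewer cells of a type and less accessibility per cell cannot be told apart.

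Most of these genes had little accessibility at the start used here. The mean promoter CPM over the 6 libraries, taken within 1000 bp of the 5′-most annotated start, was under 1 for 90 of the 103 genes and 5 or more for 4 of them. The 4 were Krt23 at 35.7, Krt8 at 35.2, Krt18 at 25.9 and Krt80 at 19.2. Among the keratin-associated genes, 53 of 57 were under 1 and the highest was Krtap2-4 at 3.05. The filter on low counts left 51 promoters, and the 52 untested ones held at most 31 cut sites in any library. For 14 of the 103 genes another annotated start was more accessible, and for 8 of these, among them Krt10, Krt33a and Krt1, it had a mean of 1 CPM or more.

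Of the 51 tested promoters, 5 differed between the groups by edgeR's quasi-likelihood test with Benjamini-Hochberg adjustment over all promoters at a threshold of 0.05. Krtap2-4, Krtap1-5, Krtap4-16 and Krt19 rose after injury and Krt23 fell. That is 9.80% of the tested members, against a background of 3.96% of 17139 promoters tested. The background was 2.21% for promoters that rose and 1.74% for those that fell. The filter keeps a promoter that is high enough in the libraries of 1 group alone. Members near the floor, such as Krtap4-16, could therefore enter the test through the group where they were high. With no filter the 5 promoters kept their calls, in a setting where 3.98% of all promoters were called. Without the filter, the median log2 change was 0.57 over the 103 promoters and 0.03 over all 21282 promoters with a cut site. It was 0.98 for the keratin-associated genes, 0.50 for the inner root sheath group, 0.40 for the hair group, 0.19 for the suprabasal group and -0.05 for the simple epithelial group. The members lie nearer the floor than most genes, with 90 of 103 promoters under 1 CPM against 7100 of all 21911. Such medians also depend on the scaling, since factors from 10 kb bins moved the median of all tested promoters to -0.528. Whether equally low promoters of other genes shifted alike was not tested. The groups of libraries did not overlap at 11 tested members that were higher and 3 that were lower after injury, and they did not overlap at 27.3% of all tested promoters.

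**Figure D1:**
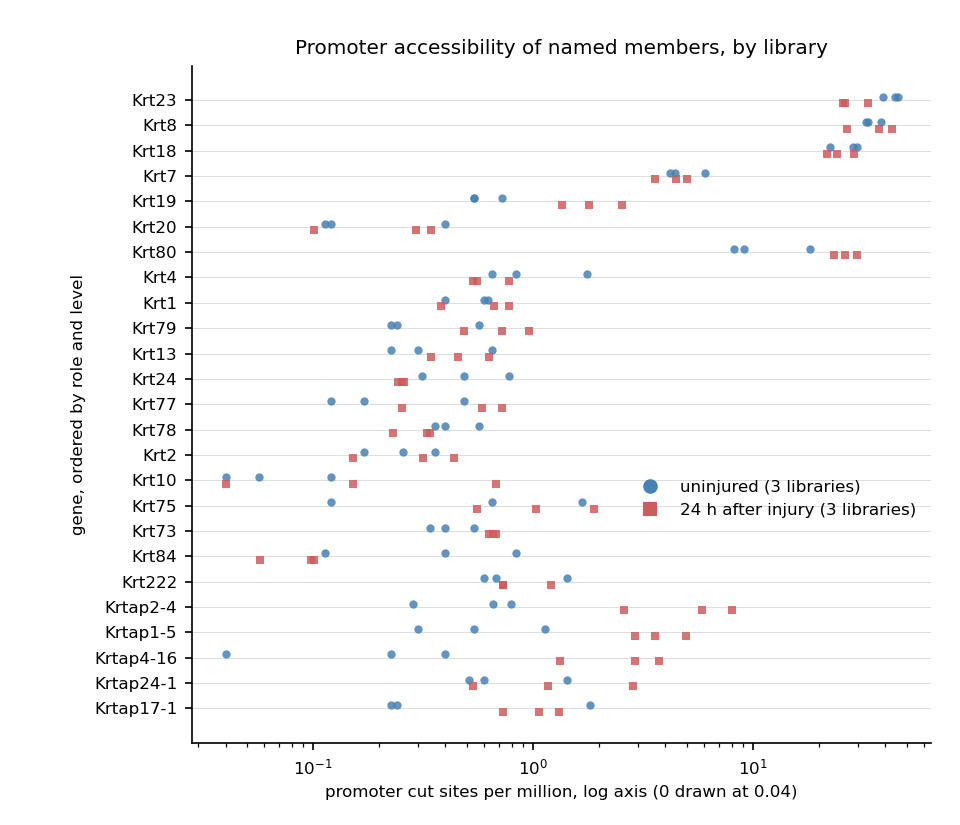
Promoter CPM (x axis, log scale) of 25 named genes in each of 6 libraries. Blue circles are uninjured libraries and red squares are libraries from 24 h after injury. Krt23 separates the groups downwards, while Krtap2-4, Krtap1-5 and Krtap4-16 separate them upwards from uninjured values of 1.14 or less.

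**Figure D2:**
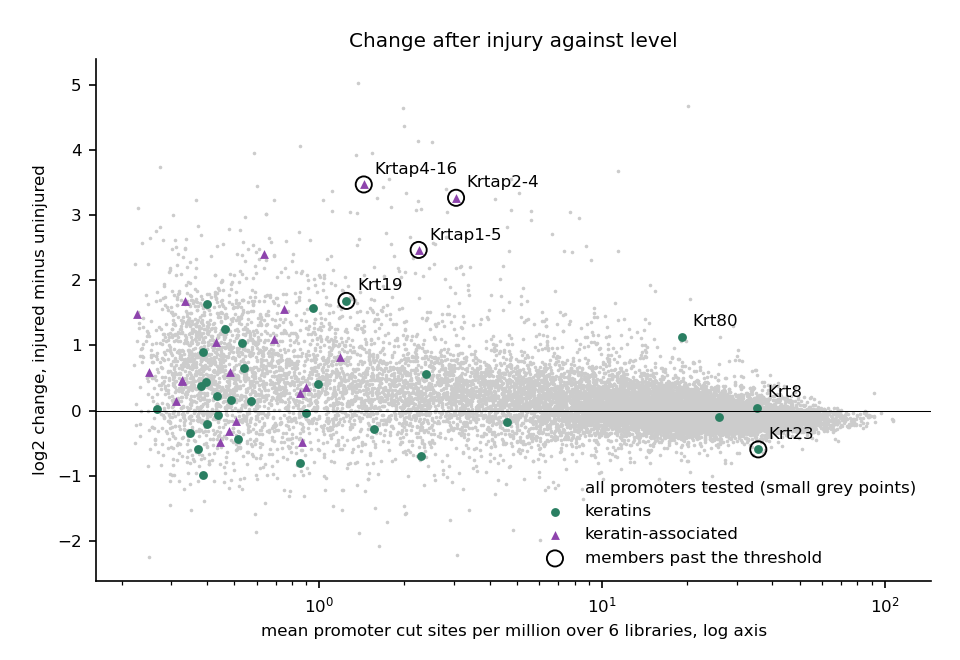
Log2 change after injury (y axis) against the mean promoter CPM over the 6 libraries (x axis, log scale) for all 17139 tested promoters, with tested keratins as green circles and keratin-associated genes as purple triangles. Rings mark the 5 members past the threshold, and 3 of them are keratin-associated genes with log2 changes from 2.46 to 3.47.

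The simple epithelial keratins held the most accessible promoters and gave the one fall among the members. Krt23, a type I keratin of simple epithelia, lies at chr11:99477974-99493137 on the minus strand. The 250 bases before its start are shown because this promoter was the most accessible of the set, and they hold neither letters of the TATA box (TATAAA) nor of the AP-1 site (TGANTCA) on either strand.
Krt23 promoter, GRCm38 chr11:99493138-99493387, minus strand: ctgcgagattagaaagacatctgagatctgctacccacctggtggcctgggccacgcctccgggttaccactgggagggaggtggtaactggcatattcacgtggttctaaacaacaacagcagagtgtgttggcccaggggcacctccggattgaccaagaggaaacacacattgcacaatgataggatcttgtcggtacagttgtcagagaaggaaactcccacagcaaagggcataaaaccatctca

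The Krt23 promoter stood at 45.5, 44.4 and 39.3 CPM in the uninjured libraries and at 33.3, 25.6 and 26.1 CPM after injury. Every injured library was below every uninjured one. The mean went from 43.1 ± 3.34 to 28.3 ± 4.29 (SD, n = 3 libraries each), a log2 change of -0.60 with a standard error of 0.10 (edgeR quasi-likelihood test, adjusted p = 0.00843). With factors from 10 kb bins the log2 change was -1.14, and with total cut sites it was -0.88. The adjusted p was 0.0547 without uninjured replicate 1, 0.0514 without uninjured replicate 2 and 0.0644 without injured replicate 2. Over the gene body the change was -0.30 with an adjusted p of 0.475, and uninjured replicate 3 was the highest library there at 81.2 CPM against 38.6 to 50.5 CPM in the others.

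Krt8 and Krt18 encode the type II and type I partners of the filament of simple epithelia. The Krt8 promoter stood at 38.2, 33.2 and 32.8 CPM in the uninjured libraries and at 42.8, 37.3 and 26.9 CPM after injury. The groups overlapped, with a log2 change of 0.04 and an adjusted p of 0.900 (edgeR quasi-likelihood test). The Krt18 promoter had 29.8, 28.6 and 22.3 CPM before and 29.0, 24.1 and 21.8 CPM after injury, again overlapping, with a log2 change of -0.10 and an adjusted p of 0.682. The direction for Krt8 depends on the scaling, since it was -0.52 with factors from 10 kb bins (adjusted p = 0.00345) and -0.25 with total cut sites. Krt18 was -0.65 and -0.39 under the same 2 scalings, with adjusted p-values of 0.000376 and 0.0181. Per kb of gene body, Krt18 had 7.37 CPM, Krt8 6.51 CPM, Krt19 4.30 CPM and Krt23 3.27 CPM over the 6 libraries.

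Krt7, a type II keratin of ducts and glands, had a promoter level of 4.90 ± 1.02 CPM before and 4.36 ± 0.715 CPM after injury (SD, n = 3 libraries each), with a log2 change of -0.18 and an adjusted p of 0.701 in edgeR's quasi-likelihood test. Its gene body had 18.2, 17.2 and 25.4 CPM before and 27.6, 28.9 and 28.3 CPM after injury. These values do not overlap, but the log2 change of 0.48 missed the threshold (adjusted p = 0.0978). A more accessible start of Krt7, 1359 bp further downstream, was an alternative chosen after seeing the data. It had 6.36, 7.91 and 7.87 CPM before and 11.6, 10.0 and 9.41 CPM after injury. Every injured library was higher there, but the log2 change of 0.48 also missed the threshold (edgeR quasi-likelihood test, adjusted p = 0.119).

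Krt19, a small type I keratin without a tail domain, rose at its 5′-most annotated start from a low level, 0.720, 0.538 and 0.540 CPM, to 2.53, 1.80 and 1.35 CPM. The log2 change was 1.68 with a standard error of 0.43 (edgeR quasi-likelihood test, adjusted p = 0.0431). That start is not where most of the gene's accessibility lay. At the start 2545 bp further downstream the level was 22.0 ± 4.30 CPM before and 25.8 ± 3.76 CPM after injury (SD, n = 3 libraries each), and the log2 change of 0.23 had an adjusted p of 0.367. The gene body had 33 CPM before and 34.6 CPM after injury (log2 change 0.07, adjusted p = 0.784). The call at the distal start was lost without any single library other than injured replicate 3, with adjusted p-values of up to 0.210, and without the top 5% of barcodes by fragments (log2 change 1.50, adjusted p = 0.106). Krt20, a keratin of intestinal and urothelial surface cells, had a mean promoter level of 0.228 CPM and was not tested there.

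The suprabasal and specialised keratins gave no call among 10 tested promoters at 5′-most starts or 13 tested gene bodies. Krt80, a type II keratin of differentiating epithelia, was the only one with a mean level of 5 CPM or more at that start. Its promoter had 8.17, 9.13 and 18.3 CPM before and 29.8, 26.4 and 23.4 CPM after injury. All injured libraries were higher, and uninjured replicate 3 lay apart from the other uninjured libraries. The means of 11.9 ± 5.58 and 26.5 ± 3.20 CPM (SD, n = 3 libraries each) gave a log2 change of 1.13 with a standard error of 0.30 and an adjusted p of 0.0915 (edgeR quasi-likelihood test). Without uninjured replicate 3 the log2 change was 1.60 and the adjusted p was 0.000126, while leaving out any other single library gave adjusted p-values of 0.136 to 0.229. DESeq2 on all libraries gave an adjusted p of 0.0367, and no filter on low counts gave 0.151. With factors from 10 kb bins the log2 change was 0.60 (adjusted p = 0.00131).

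The remaining 12 of this group had mean levels below 1 CPM at the 5′-most start. Krt1, Krt2 and Krt10, which build the filaments of suprabasal epidermis, had means of 0.541, 0.262 and 0.0589 CPM at the 5′-most start before and 0.607, 0.302 and 0.278 CPM after injury, and Krt1, the one of them that could be tested, had an adjusted p of 0.900. Krt10 and Krt1 were more accessible at starts 3267 bp and 4200 bp further downstream. There Krt10 had 9.74 CPM before and 8.08 CPM after injury (adjusted p = 0.413), and Krt1 had 7.83 and 7.73 CPM (adjusted p = 0.980). Krt4 and Krt13, the pair of non-cornified stratified epithelia, had 1.08 and 0.394 CPM before and 0.623 and 0.478 CPM after injury, with adjusted p-values of 0.373 and 0.867. Krt24, Krt78, Krt79 and Krt77 ranged from 0.258 to 0.525 CPM before and from 0.252 to 0.723 CPM after injury, with adjusted p-values of 0.315 to 0.599. Their values overlapped between the groups or missed the threshold, all by edgeR's quasi-likelihood test.

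The hair keratins gave 2 calls over gene bodies, 1 of them in the inner root sheath group, and no call at 5′-most starts. None of the 3 inner root sheath or 8 hair cortex and cuticle promoters that could be tested was called. Over gene bodies, 2 of 57 tested members were called, which is 3.51% against a background of 3.84% of 19542 gene bodies, and both rose. The background was 2.66% for bodies that rose and 1.19% for those that fell. They were Krt84, a type II hair keratin, and Krt73, a type II keratin of the inner root sheath cuticle.

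Krt84 lies at chr15:101525026-101532820 on the minus strand. Its gene body had 0.858, 1.48 and 1.44 CPM in the uninjured libraries and 6.88, 7.00 and 3.83 CPM after injury. The groups were well apart, with means of 1.26 ± 0.346 and 5.90 ± 1.80 CPM (SD, n = 3 libraries each) and a log2 change of 2.19 with a standard error of 0.34 (edgeR quasi-likelihood test, adjusted p = 0.0202). The promoter window at its 5′-most start was lower in every injured library, with 0.841, 0.397 and 0.114 CPM before and 0.101, 0.0974 and 0.0575 CPM after injury, and was too low to be tested. The most accessible annotated start of Krt84, that of a transcript with a retained intron 2479 bp further downstream, had 0.120, 0.397 and 0.540 CPM before and 2.56, 2.87 and 1.04 CPM after injury. At that start, an alternative chosen after seeing the data, the log2 change was 2.49 with a standard error of 0.55 and an adjusted p of 0.0255. Krt73 lies at chr15:101793308-101802346 on the minus strand. Its gene body had 1.65, 1.42 and 1.44 CPM before and 6.25, 4.60 and 2.77 CPM after injury, with no overlap. The log2 change was 1.60 with a standard error of 0.34 (adjusted p = 0.0412), while its promoter had a log2 change of 0.65 with an adjusted p of 0.499. Neither body call held without replicate 1 or replicate 2 of either group, each left out in turn (adjusted p of 0.0713 to 0.161), and that of Krt73 was also lost without uninjured replicate 3 (0.0676). In the fits without replicate 1 or replicate 2 of either group, only 0% to 0.0152% of all gene bodies tested were called.

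Krt87, a hair keratin next to Krt7, had gene body levels of 4.43 CPM before and 8.90 CPM after injury (log2 change 1.01, adjusted p = 0.0536). At the 5′-most start, Krt86 had the highest promoter of the hair group, 1.94 CPM before and 2.84 CPM after injury (adjusted p = 0.351). Krt33a was higher at an annotated start 2225 bp further downstream, with 9.17 CPM before and 9.67 CPM after injury (adjusted p = 0.825). Krt75, of the companion layer, had 0.816 CPM before and 1.16 CPM after injury (adjusted p = 0.771). Of the other keratins, Krt42 had the highest promoter, with 2.83 CPM before and 1.75 CPM after injury (adjusted p = 0.468), and Krt222 had 0.901 and 0.891 CPM (adjusted p = 0.975). None of these passed edgeR's quasi-likelihood test.

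The keratin-associated genes gave the largest changes at promoters. Of 57 genes, 21 promoters were tested and 3 rose, all on chromosome 11 and all on the minus strand. The other 18 tested promoters were not called, and no keratin-associated gene body was called among 11 tested. The called genes were Krtap1-5 at chr11:99579976-99581016, Krtap2-4 at chr11:99614019-99614846 and Krtap4-16 at chr11:99850655-99851608. The 250 bases before each start are given because these 3 promoters carry the changes. Capitals mark letters of the TATA box (TATAAA) on the gene's strand and of the AP-1 site (TGANTCA) on either strand.
Krtap2-4 promoter, GRCm38 chr11:99614847-99615096, minus strand: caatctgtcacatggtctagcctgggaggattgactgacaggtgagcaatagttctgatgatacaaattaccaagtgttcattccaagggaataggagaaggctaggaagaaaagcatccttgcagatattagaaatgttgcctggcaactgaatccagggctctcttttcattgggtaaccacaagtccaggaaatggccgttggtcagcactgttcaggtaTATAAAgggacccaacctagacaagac
Krtap1-5 promoter, GRCm38 chr11:99581017-99581266, minus strand: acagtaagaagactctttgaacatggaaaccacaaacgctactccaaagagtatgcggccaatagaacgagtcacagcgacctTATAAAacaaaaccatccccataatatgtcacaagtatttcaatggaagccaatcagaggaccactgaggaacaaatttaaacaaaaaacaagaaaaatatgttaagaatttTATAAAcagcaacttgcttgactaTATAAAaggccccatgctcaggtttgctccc
Krtap4-16 promoter, GRCm38 chr11:99851609-99851858, minus strand: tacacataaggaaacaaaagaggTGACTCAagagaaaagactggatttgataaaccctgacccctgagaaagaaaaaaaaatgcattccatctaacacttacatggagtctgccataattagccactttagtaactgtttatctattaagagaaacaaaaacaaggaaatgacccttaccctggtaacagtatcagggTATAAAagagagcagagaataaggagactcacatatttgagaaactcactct

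The Krtap2-4 promoter had 0.660, 0.794 and 0.284 CPM before and 8.05, 5.89 and 2.59 CPM after injury. The lowest injured library was more than 3 times as high as the highest uninjured one. The means of 0.579 ± 0.264 and 5.51 ± 2.75 CPM (SD, n = 3 libraries each) gave a log2 change of 3.26 with a standard error of 0.48 and an adjusted p of 0.00524 (edgeR quasi-likelihood test). This was the one promoter of the set called under all 19 alternative settings, with adjusted p-values up to 0.0425. In its window, TATAAA lay 27 bases before the start and TGACTCA lay 489 and 335 bases before it. The letters TGANTCA were in the promoter windows of 44 of the 103 members (42.7%). In the Krtap2-4 window, 19% of the 31-base words of the window occur more than once in the genome.

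The Krtap1-5 promoter had 0.300, 0.538 and 1.14 CPM before and 4.99, 3.60 and 2.91 CPM after injury, without overlap. The means were 0.659 ± 0.431 and 3.83 ± 1.06 CPM (SD, n = 3 libraries each), with a log2 change of 2.46, a standard error of 0.42 and an adjusted p of 0.00774 (edgeR quasi-likelihood test). The adjusted p was 0.0514 without uninjured replicate 2, 0.0546 without injured replicate 1 and 0.0523 without injured replicate 2. With a window of 500 bp the log2 change was 2.21 and the adjusted p was 0.0724. TATAAA lay 55 and 31 bases before the start, with another match farther upstream in the sequence shown, and TGAATCA lay 694 and 652 bases before it.

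The Krtap4-16 promoter was at 0, 0.227 and 0.398 CPM before and at 3.75, 2.92 and 1.32 CPM after injury. Again every injured library was above every uninjured one. The means of 0.208 ± 0.200 and 2.66 ± 1.23 CPM (SD, n = 3 libraries each) gave a log2 change of 3.47 with a standard error of 0.64 and an adjusted p of 0.0125 (edgeR quasi-likelihood test). It was lost without uninjured replicate 2 (adjusted p = 0.0763), injured replicate 1 (0.0776) or injured replicate 2 (0.0730). TATAAA lay 52 bases before its start, and TGAGTCA and TGACTCA lay 286 and 227 bases before it.

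In the plot of cut sites along the windows, the added signal at Krtap2-4 and Krtap1-5 was upstream of the start rather than at it. Injured replicate 3 was the lowest injured library at all 3 called promoters. It also had 137 of its 746 barcodes in the HBC-like cell cluster that held nearly only injured libraries (cluster 1), against 984 of 1338 for injured replicate 1 and 246 of 420 for injured replicate 2.

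**Figure D3:**
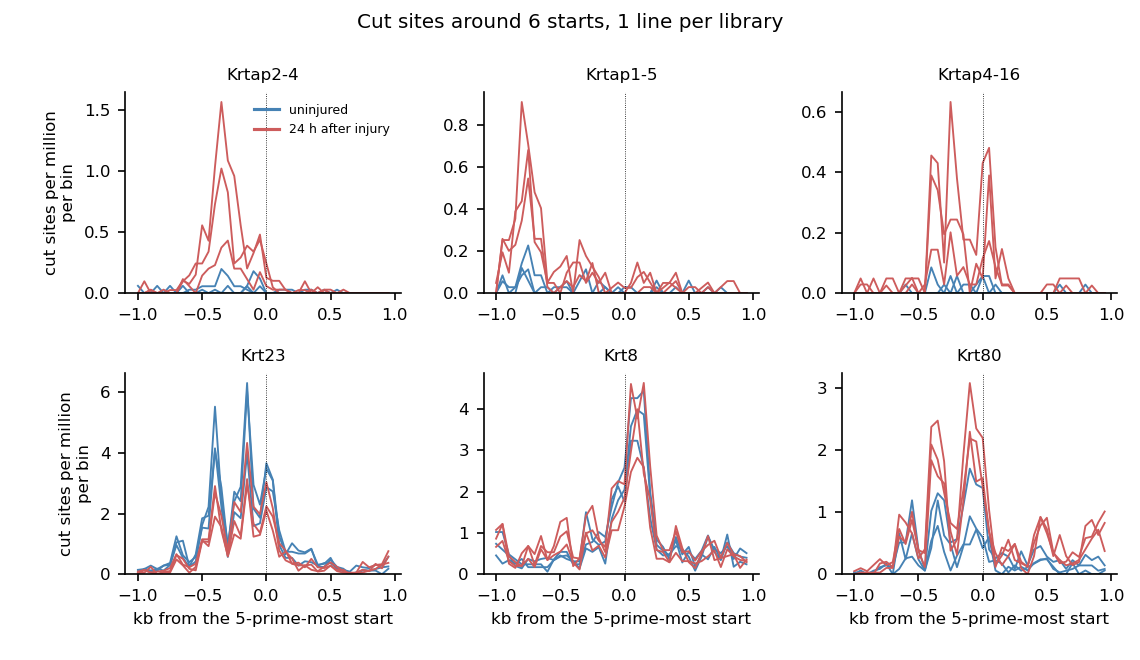
CPM of each library per 50 bp bin (y axis, a separate scale in each panel) by distance in kb from the 5′-most start (x axis), with 1 line per library, blue for uninjured and red for injured. Unlike the promoter levels in the text, CPM here is without TMM factors (1.08 to 1.12 for uninjured and 0.867 to 0.974 for injured libraries). Falls after injury therefore look larger, and rises smaller, than in the text. The injured libraries rise above the uninjured ones upstream of the starts of Krtap2-4 and Krtap1-5, whereas at Krt23 the uninjured libraries are mostly higher across the same peaks.

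Other keratin-associated genes did not pass the test. The nearest was Krtap5-4 on chromosome 7, with 0.180 CPM before and 1.09 CPM after injury (log2 change 2.40, adjusted p = 0.0635). Krtap28-13, whose promoter window overlaps that of the protein-coding gene A030005K14Rik, had 0.388 and 1.11 CPM (adjusted p = 0.138). Krtap24-1 and Krtap17-1, among the 5 highest of their kind, had log2 changes of 0.82 and 0.37 with adjusted p-values of 0.456 and 0.795, all by edgeR's quasi-likelihood test. For 22 of the 103 genes more than 20% of the 31-base words in the promoter window are repeated in the genome, so reads there may not be placed uniquely.

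Between and within the genes, accessibility was read from open regions, defined as 500 bp tiles at 5 or more times the median tile over the 6 libraries and merged where adjacent. The 6 keratin loci held 226 regions nearer to a member than to an excluded keratin. The chromosome 15 locus was the densest of the large ones, with 110 regions over 705 kb, while the chromosome 11 locus had 87 over 1057 kb and the keratin-associated locus of chromosome 16 had 13 over 980 kb. Of 206 regions tested, 14 rose and 2 fell by edgeR's quasi-likelihood test, which is 7.77% against a background of 7.52% of 160731 regions. The background was 5.96% for rises and 1.55% for falls. With factors from 10 kb bins the split was 12 higher and 7 lower, where 7373 of all regions were higher and 10932 lower (11.4% called). The median log2 change was 0.18 over these regions and 0.01 over all regions.

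All 16 called regions were in the loci of chromosome 11, with 8 rises and 1 fall, and chromosome 15, with 6 rises and 1 fall. Of the 14 rises, 3 covered the starts of Krtap2-4, Krtap1-5 and Krtap4-16, 6 lay within members, 4 lay between protein-coding genes and 1 covered the start of Gm11563, a predicted gene. Of the 4, that near Krt31 lies in the antisense gene Gm11571 and one near Krt80 overlaps the antisense gene Gm35853. The within-gene rises were in Krt73, Krt84 (2 regions), Krt87, Krt88 and Krt19. The densest 300 bases of 3 rising regions and of the region that fell with the lowest p are shown, on the plus strand, with TGANTCA in capitals.
Beside the start of Gm11563, GRCm38 chr11:99659251-99659550, plus strand: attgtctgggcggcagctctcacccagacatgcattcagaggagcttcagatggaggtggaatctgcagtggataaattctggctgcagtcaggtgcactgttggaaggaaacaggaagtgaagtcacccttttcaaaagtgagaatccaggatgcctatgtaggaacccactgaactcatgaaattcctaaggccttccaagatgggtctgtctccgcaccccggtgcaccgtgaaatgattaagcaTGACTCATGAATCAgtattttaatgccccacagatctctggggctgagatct
Near Krt31, in an intron of Gm11571, GRCm38 chr11:100055826-100056125, plus strand: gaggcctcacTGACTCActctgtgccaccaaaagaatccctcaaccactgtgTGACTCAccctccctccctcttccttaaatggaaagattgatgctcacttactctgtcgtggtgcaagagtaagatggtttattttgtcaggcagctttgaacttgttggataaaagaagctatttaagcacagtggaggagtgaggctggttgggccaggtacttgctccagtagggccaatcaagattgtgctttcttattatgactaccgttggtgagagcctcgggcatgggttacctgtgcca
Within Krt73, GRCm38 chr15:101800501-101800800, plus strand: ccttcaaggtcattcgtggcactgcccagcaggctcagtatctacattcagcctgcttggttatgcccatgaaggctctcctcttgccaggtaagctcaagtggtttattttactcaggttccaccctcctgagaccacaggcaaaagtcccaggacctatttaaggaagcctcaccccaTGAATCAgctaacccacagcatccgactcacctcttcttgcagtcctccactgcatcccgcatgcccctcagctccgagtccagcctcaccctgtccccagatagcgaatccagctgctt
Between genes near Krt1, GRCm38 chr15:101843251-101843550, plus strand: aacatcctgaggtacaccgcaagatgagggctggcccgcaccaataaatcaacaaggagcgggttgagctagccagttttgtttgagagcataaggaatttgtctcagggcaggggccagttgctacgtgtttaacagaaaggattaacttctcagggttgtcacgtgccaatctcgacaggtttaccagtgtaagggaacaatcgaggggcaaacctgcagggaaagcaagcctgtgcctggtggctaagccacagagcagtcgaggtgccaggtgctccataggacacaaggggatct

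The region at the start of Gm11563, chr11:99658501-99660000, lay 6710 bp from the start of Krtap4-6. It had 0.255, 0.245 and 0.148 CPM in the uninjured libraries and 5.46, 4.66 and 1.84 CPM after injury. This was the largest log2 change of the called regions, 4.21 with a standard error of 0.54 (edgeR quasi-likelihood test, adjusted p = 0.00673). Without injured replicate 2 the adjusted p was 0.0511. The region near Krt31, chr11:100055001-100058500, lay 6199 bp from the start of that hair cortex keratin. It was already open before injury, with 7.70, 5.98 and 11 CPM, and had 33, 26.7 and 20.7 CPM after injury. The log2 change was 1.70 with a standard error of 0.25 (adjusted p = 0.00719), and the adjusted p was 0.0507 without uninjured replicate 1 and 0.0516 without injured replicate 2.

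The region within Krt73, chr15:101800501-101801000, overlaps a coding exon by 89 bp in the stretch shown. It had 0.318, 0.153 and 0.0594 CPM before and 3.92, 2.33 and 1.15 CPM after injury, a log2 change of 3.93 with a standard error of 0.69 (edgeR quasi-likelihood test, adjusted p = 0.0116). The call was lost without uninjured replicate 2 (0.0594) or injured replicate 2 (0.0625). The regions 4034 bp from the start of Krt26, at chr11:99341501-99342500, and within Krt84, at chr15:101529001-101530000, both had a log2 change of 3.75, with adjusted p-values of 0.0130 and 0.0133. These 2 regions and the one in Krt73 had uninjured means of 0.142 to 0.177 CPM and injured means of 2.01 to 2.47 CPM.

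The 2 regions that fell overlapped no annotated gene. The one 7544 bp from the start of Krt1, chr15:101842501-101844000, had 5.79, 4.66 and 4.84 CPM before and 2.13, 1.60 and 2.02 CPM after injury. The injured values were all below the uninjured ones, with a log2 change of -1.40, a standard error of 0.30 and an adjusted p of 0.0210 (edgeR quasi-likelihood test). The region 8553 bp from the start of Krtap29-1, chr11:99969501-99971500, had 4.33, 3.80 and 2.58 CPM before and 1.57, 1.02 and 0.573 CPM after injury, a log2 change of -1.75 with an adjusted p of 0.0380. Each of the 16 regions other than that at the start of Gm11563 lost its call without at least 2 of the 6 libraries in turn.

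The letters TGANTCA, the consensus of AP-1 (FOS and JUN dimers), were counted on both strands over whole regions. They occurred in 13 of the 14 rising regions (92.9%), in 0 of the 2 that fell and in 80 of 190 that were not called (42.1%). Over regions of the whole genome the shares were 83.4% of those that rose, 40.0% of those that fell and 38.6% of those not called. The falling regions of the keratin loci are too few to compare. A match is a description of letters and not of binding.

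**Figure D4:**
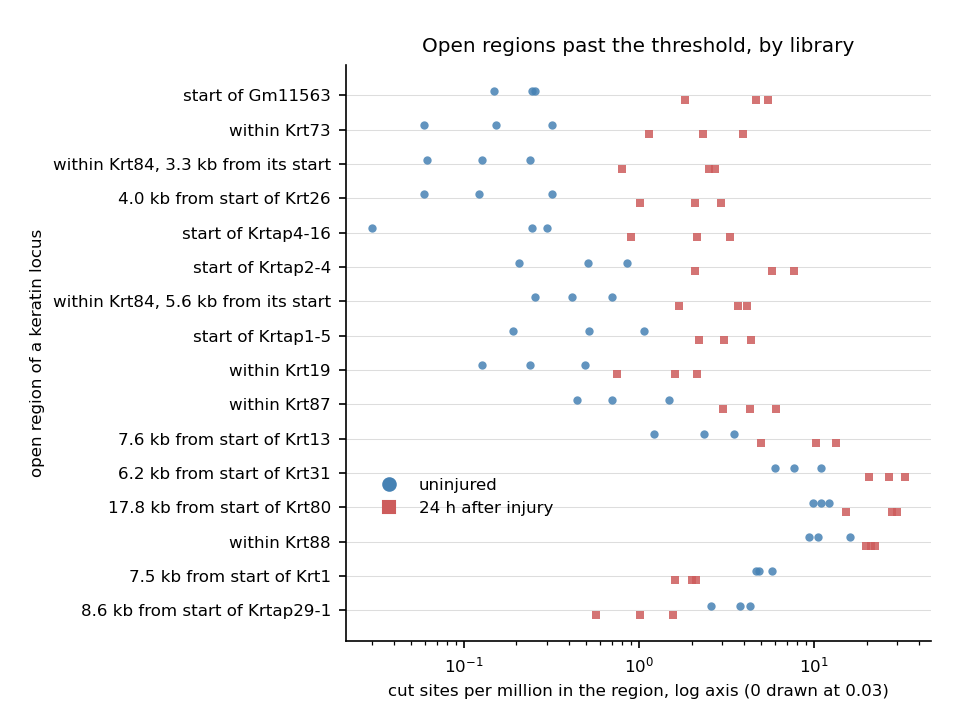
CPM (x axis, log scale) in the 16 called regions of the keratin loci, with uninjured libraries as blue circles and injured libraries as red squares, named by the gene they lie in or the nearest member start. The groups do not overlap in these regions, and the rising regions include some that were nearly closed before injury, such as that within Krt73, and one, near Krt31, that already had 5.98 to 11 CPM.

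Cells were clustered on open regions more than 100 kb from any keratin gene, which gave 11 clusters of 4397 barcodes. Levels here are CPM of a cluster's own cut sites with exact 95% Poisson intervals that cover counting error only, and no test was made since clusters come from the data. Cluster 2, HBC-like, held 315, 540 and 151 barcodes of the uninjured libraries and 20 of the injured ones. Cluster 1, also HBC-like, held 984, 246 and 137 barcodes of the injured libraries and 3 of the uninjured ones. Cluster 3 (886 barcodes) and cluster 5 (192 barcodes) were also highest for HBC markers among the lists used for naming. They had the respiratory marker Reg3g among their leading genes and were left unnamed. A list of 5 squamous differentiation markers did not compete for the names. Its median log2 level against the mean of the other clusters was 1.28 in cluster 1 and 0.615 in cluster 5. The HBC list had 0.589 and 0.597 there, and exceeded the squamous list in clusters 2, 3 and 10.

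Cluster 1 was nearly all injured and cluster 2 nearly all uninjured. Comparing them therefore repeats the contrast of the library totals on part of the same cut sites and adds no separate evidence. Between clusters 1 and 2 the 5 called promoters differed in the direction of the library totals. Krtap2-4 had 9.18 CPM (8.37 to 10.1) in cluster 1 and 0.818 CPM (0.548 to 1.18) in cluster 2, and within cluster 1 the 3 injured libraries ranged only from 8.09 to 9.46 CPM. Krtap4-16 had 4.56 CPM (3.99 to 5.19) in cluster 1 and 0.113 CPM (0.0308 to 0.289) in cluster 2, and Krtap1-5 had 4.98 CPM (4.38 to 5.63) and 0.339 CPM (0.175 to 0.591). In cluster 3, to which every library contributed at least 66 barcodes, Krtap2-4 had 1.16 CPM, Krtap1-5 2.02 CPM and Krtap4-16 0.178 CPM, all below cluster 1. The unnamed cluster 9 (119 barcodes) had 4.26 CPM (1.56 to 9.27) at both Krtap1-5 and Krtap4-16, intervals that hold the levels of cluster 1. In the open regions over those starts, cluster 9 had 0 cut sites at Krtap1-5, with an upper limit of 2.62 CPM. At Krtap4-16 it had 1.42 CPM (0.172 to 5.13) there, from 2 cut sites. Its barcodes had a median depth ratio of 0.234 to the median of their library. Cluster 5, with 167 of its 192 barcodes from uninjured replicate 3, was open at Krtap1-5. The open region over that start had 2.82 CPM (1.93 to 3.98) in cluster 5, 4.62 CPM (4.05 to 5.25) in cluster 1 and 0.339 CPM in cluster 2. Krt19 had 2.58 CPM (2.15 to 3.06) in cluster 1 and 0.423 CPM (0.237 to 0.698) in cluster 2. Its highest level, 9.52 CPM (5.07 to 16.3), was in the HBC-like cluster 10, which held 14, 40 and 10 barcodes of the uninjured and 8, 1 and 13 of the injured libraries. By library within cluster 3, Krtap1-5 had 1.17, 0 and 0.554 CPM before and 4.06, 2.28 and 2.48 CPM after injury, from 0 to 27 cut sites, without overlap. Krtap2-4 had 0, 2.77 and 0.554 CPM before and 2.60, 0 and 1.01 CPM after injury, and Krtap4-16 had 0, 0.693 and 0 CPM before and 0, 0.507 and 0.184 CPM after injury, both with overlap. Sensory neuron-like cells had no cut site at any of the 3 promoters, where 3 cut sites would be 0.419 CPM. In the open regions over the 3 starts, neuronal precursor-like cluster 7 had 2.11 CPM (1.43 to 2.99) at Krtap2-4. It had 1.15 CPM at Krtap1-5 and 0.815 CPM at Krtap4-16. The other precursor-like cluster, cluster 8, had 0 cut sites in each of these regions.

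Krt23 had 60.3 CPM (57.7 to 62.9) in cluster 2 and 26.6 CPM (25.2 to 28.0) in cluster 1, with 57.0 to 67.0 CPM over the 3 uninjured libraries of the former and 23.1 to 27.9 CPM over the 3 injured libraries of the latter. In cluster 3 the uninjured libraries had 48.1, 52.7 and 56.1 CPM and the injured ones 51.7, 42.8 and 45.2 CPM, which overlap. Sustentacular-like cells had 45.5 CPM (41.5 to 49.7). Of 6 sustentacular markers, 1 promoter was lower after injury in the library totals. With HBC-like clusters only, the log2 change at Krt23 was -0.89. With all clusters highest for the HBC list it was -0.53 (edgeR quasi-likelihood test, adjusted p = 0.0111). The first set mostly compares cluster 1 from injured libraries with cluster 2 from uninjured ones. In it, cell mix and a change within cells cannot be told apart. The part of sustentacular-like cells in the fall was not tested.

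Krt80 had 7.51 CPM (6.63 to 8.46) in cluster 2 and 28.6 CPM (27.1 to 30.1) in cluster 1, but also 28.3 CPM (26.5 to 30.1) in cluster 3 and 32.7 CPM (29.5 to 36.2) in cluster 5. Cluster 5 drew 167 of its 192 barcodes from uninjured replicate 3, the uninjured library with the highest Krt80 promoter. With HBC-like clusters only, which mostly sets cluster 1 from injured libraries against cluster 2 from uninjured ones and adds the mixed cluster 10, the Krt80 log2 change was 2.42. The adjusted p was 6.42e-18 in edgeR's quasi-likelihood test, in a setting where 19.8% of all promoters were called. With all clusters highest for the HBC list the log2 change was 1.27, with an adjusted p of 0.151 in the same test. Krt8 had 44.6 CPM in cluster 2, 42.0 CPM in cluster 1, 50.2 CPM in sustentacular-like cells and 1.40 CPM in sensory neuron-like cells, and Krt18 had 34.0, 27.3, 36.8 and 1.40 CPM in the same order.

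Some keratin-associated promoters were more accessible in neuronal clusters. That of Krtap24-1 had 12.7 CPM (10.2 to 15.6) in olfactory sensory neuron-like cells and 4.63 CPM (3.79 to 5.60) in neuronal precursor-like cells, against 0.0787 CPM in cluster 1 and 0 cut sites in cluster 2, where 3 cut sites would be 0.0847 CPM. Krtap10-10 had 4.54 CPM in the precursor-like, 1.82 CPM in the sensory neuron-like cells and 0.198 CPM in cluster 2, and Krtap28-13 had 3.01, 2.51 and 0.113 CPM in the same order. The signal at Krtap28-13 cannot be told apart from that of A030005K14Rik, whose promoter window overlaps. Krt42 had 5.78 CPM in cluster 2 and 1.79 CPM in cluster 1. Within cluster 3 the groups of libraries did not overlap at 4 of the 16 called regions (25%), in the direction of the library totals. They did not overlap at 13.3% of all tested regions and, in that direction, at 29.6% of the 12079 regions called in the library totals. That near Krt31 had 14.1, 20.8 and 14.3 CPM in the uninjured and 34.1, 34.2 and 39.9 CPM in the injured libraries, and that within Krt88 had 14.9, 12.5 and 16.1 CPM against 32.2, 25.3 and 23.7 CPM. The other two were low, those at the start of Krtap1-5 and near Krtap29-1.

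**Figure D5:**
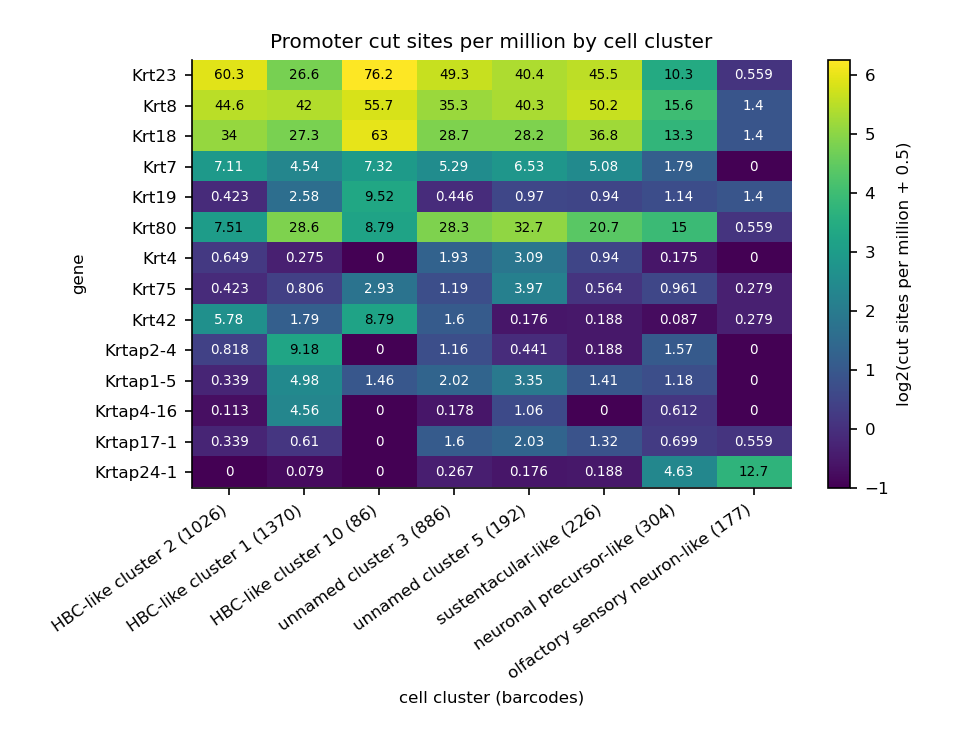
Promoter CPM (number in each cell of the grid) of 14 members in 8 cell clusters or classes, coloured by log2 of the value plus 0.5, with the number of barcodes in brackets. Cluster 2 is made up nearly only of uninjured and cluster 1 nearly only of injured libraries. Krt23, Krt8 and Krt18 are open in basal and sustentacular-like cells, Krtap2-4, Krtap1-5 and Krtap4-16 are, of the 8 shown, highest in cluster 1, and Krtap24-1 is highest in olfactory sensory neuron-like cells at 12.7.

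In promoter sequence, from 250 bases before to 50 bases after the start, the members had the TATA box letters TATAAA far more often than other genes, in 68 of 103 (66.0%) against 12.7% of all protein-coding promoters. The share was 82.5% in keratin-associated genes and 1 of 6 in simple epithelial keratins. Within 40 bases upstream and on the gene's strand it was 45.6% against 2.79%. The letters GGGCGG of KLF and SP factors were in 4.85% of members and 43.0% of all, while CCAAT was in 38.8% and 39.0%. TTNAT, letters like those of HOXC13 sites, was in 98.1% and 67.1%, and the AP-1 letters were in 10.7% and 6.91%. Over the windows of 1000 bp either side of the start, the median GC content was 46.7% for members and 51.2% for all.

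Among other genes of the pathway, counts stand against the background of 2.21% of promoters that rose. The 15 partners of keratin filaments, such as desmoplakin (Dsp) and plectin (Plec), gave 1 rise, Fam83h, which organises keratin filaments, from 18.9 to 28.5 CPM (log2 change 0.59, edgeR quasi-likelihood adjusted p = 0.0397). Of 12 factors known to act on keratin genes in skin and hair, 1 rose, Foxn1, from 7.02 to 11.3 CPM (log2 change 0.69, adjusted p = 0.0407). No gene body of either list was called. Hoxc13, a regulator of hair keratin genes, had 4.42 CPM before and 4.45 CPM after injury. Of 5 squamous differentiation markers, 4 promoters rose. The promoters of all 5 summed to 14.9, 18.5 and 19.8 CPM before and 42.4, 38.0 and 27.0 CPM after injury, with injured replicate 3 again the lowest injured library. Over the gene bodies of the 5 markers the sums overlapped, with 38.6, 33.5 and 40.4 CPM before and 33.5, 36.6 and 39.3 CPM after injury. Of the excluded keratins, Krt16 rose at its promoter from 1.59 to 21.1 CPM (log2 change 3.68, adjusted p = 0.0203), and Krt6a had 1.81 and 14.8 CPM (adjusted p = 0.0545).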

How the data were processed

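The members and gene lists were chosen with earlier results of these data known. The data were 10x Genomics ATAC-seq of single cells from 3 uninjured samples and 3 samples at 24 h after injury. The authors deposited, per library, fragment files in which each line is 1 deduplicated fragment with its barcode and a count of read pairs. Cell Ranger 2.0.0 and mm10 are named in the submitters' processing notes. All fragments fitted within the chromosome lengths of GRCm38, so coordinates are GRCm38 with the GENCODE annotation, 1-based.

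From these, both ends of each fragment were counted as cut sites over barcodes with at least 2000 fragments, and summed per library, since cells are not replicates. Windows were 1000 bp either side of the 5′-most start, gene bodies, and open regions (500 bp tiles at 5 times the median tile, merged). The whole tables were fitted in R 4.3.3 by the robust quasi-likelihood test of edgeR 4.0.16 after filterByExpr and TMM scaling. P-values were adjusted by Benjamini-Hochberg over every feature tested, with 0.05 as the threshold. The test gives no standard error, so those printed are the absolute log2 change divided by the square root of the F statistic. The scripts were tested on simulated data. DESeq2 1.42.0, other scalings, filters, barcode sets, windows and each library left out were the alternatives. Leaving out copied barcodes, the wider set of HBC-list clusters and the window at the most accessible start were added after seeing the data.

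Named were all called members, all simple epithelial keratins, a list of 12 other keratins, the 5 highest promoters of the set and of the keratin-associated genes, and the 5 regions with the lowest p in each direction. Genes given beside these as the nearest to the threshold or the highest of a group or cell cluster (Krt33a, Krt42, Krt86, Krt87, Krtap5-4, Krtap10-10, Krtap28-13) were chosen after their values were seen. Barcodes were clustered by TF-IDF, truncated SVD (30 components less 2 that followed depth), 15 neighbours and Leiden at resolution 0.5 (igraph 0.11.9, scikit-learn 1.9.0, Python 3.11.15), and named from marker lists read over gene bodies and 2000 bp upstream. No doublet caller was run, and an alternative left out the 5% of barcodes with the most fragments. The depth, 14825320 to 44875242 cut sites per library, leaves closed genes with few counts. Protein sequences were not used here.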

Additional observations from a re-analysis of the deposited data

How the results depend on the processing

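Counts of calls by edgeR's quasi-likelihood test were 5 at promoters, 2 over gene bodies and 16 in open regions. The shares called of all promoters, bodies and regions were 3.96%, 3.84% and 7.52%, and each count is followed by the share under its setting. At promoters the members' calls moved to 12 with factors from 10 kb bins (6 higher and 6 lower, 58.9%) and to 8 of 14 tested with HBC-like clusters only (19.8%). Over bodies they moved to 4 with DESeq2 (12.6%), 6 with 10 kb bin factors (24.5%), 12 with HBC-like clusters only (26.3%) and 4 with all clusters highest for the HBC list (8.47%). In regions they moved to 29 with DESeq2 (11.4%), 69 with HBC-like clusters only (43.7%) and 29 with all clusters highest for the HBC list (17.6%). In these settings the 5 promoters and both bodies kept their call and direction, whereas 14 of the 16 regions did with 10 kb bin factors. The cause of these moves was not tested. The fits without 1 library have fewer samples, and gave 1 to 6 promoters (0.569% to 7.74%), 0 to 5 bodies (0% to 10.9%) and 0 to 32 regions (0% to 13.3%). No member body was called without uninjured replicate 1 or 2 or injured replicate 1 or 2, where 5 to 8 members had an unadjusted p under 0.05. In those fits 0% to 0.0152% of all bodies were called. No region was called without injured replicate 2, where 32 had an unadjusted p under 0.05 and 0 of all 172590 tested regions were called, while 32 regions were called without injured replicate 3. At promoters there were 3 calls without uninjured replicate 1, 1 without uninjured replicate 2 or injured replicate 2, and 2 without injured replicate 1. Krtap2-4 was the one member called at its promoter under every alternative.

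Replicate numbers were not taken as a pairing, because deviations of same-numbered libraries correlated at 0.0858, 0.214 and 0.268 over promoters and not every pair exceeded 0.1, nor did every library correlate best with its own number. Same-numbered libraries did share the age of their animals, and those of replicate 3 shared copied barcodes. With the replicate number as a block there were 6 calls at promoters (10.5%), 3 over bodies (6.85%) and 24 in regions (9.23%). The block also turned the log2 change of the Krt222 promoter to 0.028 and of the Krt24 body to -0.076.

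Changes of sign concerned promoters and bodies that were not called on all libraries with the settings of the report. With factors from 10 kb bins the log2 changes of the promoters of Krtap17-1, Krt13, Krt75, Krt1 and Krt8 became -0.17, -0.33, -0.14, -0.37 and -0.52, and those of the bodies of Krt24, Krt19 and Krt4 became -0.30, -0.25 and -0.28. With total cut sites the promoters of Krt13, Krt1 and Krt8 became -0.071, -0.12 and -0.25, and the bodies of Krt24 and Krt4 became -0.044 and -0.023. The Krt24 body was -0.0044 without the filter. With barcodes that had at least 20% of cut sites in open regions, the promoters of Krt13 and Krt1 were -0.037 and -0.048 and the bodies of Krt4 and Krt8 -0.20 and 0.0063. Without the top 5% of barcodes the Krt75 promoter was -0.32 and the bodies of Krt4 and Krt8 were -0.19 and 0.012. With HBC-like clusters only, the bodies of Krt4 and Krt8 were -0.65 and 0.0030. With all clusters highest for the HBC list, the promoters of Krt222 and Krtap17-1 were 0.49 and -0.21 and the bodies of Krt4 and Krt8 -0.39 and 0.037. Leaving the first 1 kb out of bodies gave -0.045, -0.13, 0.045 and 0.052 for Krt24, Krt19, Krt8 and Krt18. At the most accessible start, the promoters of Krt13, Krt7, Krt1 and Krt79 had -0.093, 0.48, -0.011 and -0.55.

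Leaving out 1 library in turn also turned some signs. Promoter ranges were -0.047 to 0.42 for Krt1, -0.083 to 0.85 for Krt13, -0.32 to 0.47 for Krt222, -0.29 to 0.00074 for Krt7, -0.10 to 1.41 for Krt75, -0.11 to 0.22 for Krt8, -0.095 to 2.12 for Krtap17-1 and -0.049 to 1.46 for Krtap24-1. Body ranges were -0.072 to 0.20 for Krt19, -0.13 to 0.80 for Krt20, -0.53 to 0.10 for Krt23, -0.49 to 0.32 for Krt24, -0.22 to 0.18 for Krt4 and -0.26 to 0.069 for Krt8. The use of all clusters highest for the HBC list and of the most accessible start was chosen after seeing the data. The depth limits most members, since 52 promoters were too low to test.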
